A study of Mus musculus with 9 samples.

Results

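The genes described here are 8 members of the interleukin 1 (IL-1) system, taken by symbol from RNA-seq of mouse intraperitoneal macrophages: the ligands Il1a, Il1b and Il18, the IL-1 receptor antagonist Il1rn, the IL-18 binding protein Il18bp, the signalling receptor Il1r1 with its accessory chain Il1rap, and the decoy receptor Il1r2. All 8 were among the 15343 genes of the deposited table, and 7 passed a filter on low values that kept 13895 genes. Il1r2 did not pass it. All 9 libraries came from cells marked WT, of a strain written CF7B1/6 in the labels, and all received LPS (lipopolysaccharide of the bacterial outer membrane, a ligand of TLR4) at 100 ng/ml for 6 h. In 3 libraries LPS followed 1 h with DHA at 100 µM, which is the omega-3 fatty acid docosahexaenoic acid. In another 3 it followed 1 h with 10 µM cpdA, a small molecule that activates Gpr120, a receptor for long-chain fatty acids. The remaining 3 had LPS with no pretreatment in their labels. Unstimulated cells were not analysed here, so each level belongs to the LPS-stimulated state. The labels do not say that the libraries of a group came from separate animals, so p-values measure the spread between these libraries, which may be technical.

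IL-1α and IL-1β bind the same receptor, IL-1R1, which then recruits the accessory protein IL-1RAP and signals through the adaptor MyD88 to NF-κB. The antagonist IL-1Ra occupies IL-1R1 without recruiting the accessory chain, IL-1R2 binds IL-1 but has no signalling domain, and IL-18BP captures IL-18 before it reaches its receptor. IL-1β and IL-18 are made as precursors that caspase-1 cleaves in inflammasomes, so the mRNA levels below are not levels of active cytokine. In macrophages LPS induces Il1a, Il1b and Il1rn, while Il18 mRNA is present before stimulation.

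Read depth was recovered from the deposited normalized counts (read counts divided by 1 size factor per library) and ranged from 13797079 reads in DHA 1 to 37572822 in cpdA 2. On the first 2 principal components over all genes, which held 40.5% and 28.8% of the variance, cpdA 3 stood apart on the first and LPS 3 on the second. DHA 1 and cpdA 1, which carry different labels, were the most alike of all 36 pairs of libraries by squared difference over the noise of counting. That measure tends to be smaller for shallow libraries, and DHA 1 was the shallowest. The tested members of the IL-1 system differed between DHA 1 and cpdA 1 by at most 0.057 on the log2 scale. The main results below are therefore also given without cpdA 3 and LPS 3, and a fit without DHA 1 and cpdA 1 changed no call of a member. All 8 macrophage markers listed were present in every library, and their summed normalized count was 302560 in LPS 3 and 373330 in cpdA 3 against at least 540860 in each of the other 7, mainly through lysozyme (Lyz2). The other markers were mixed. Itgam was also lowest in these 2 libraries, at 6344.9 and 6966.5, but Cd68 was highest there, at 38110 and 37490. Csf1r (21816) and Gata6 (405.6) were highest in cpdA 3, where Mertk (4300.9) and Timd4 (25.4) were lowest. In LPS 3 Mertk (10615) was highest and Emr1 (29157), an older symbol of Adgre1, was lowest. The 5 nuclear transcripts used to look at RNA quality summed to 53798 in cpdA 3, mostly Neat1, and to at most 23374 in any other library. Whether any of this took part in the values of these 2 libraries was not tested. In bulk RNA, fewer cells of a type and less RNA per cell cannot be told apart.

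The 2 IL-1 ligands were among the most abundant transcripts of these cells. By mean normalized count over the 9 libraries Il1b (Entrez 16176) ranked 10 and Il1a (Entrez 16175) ranked 18 of 15343 genes, with Il1rn (Entrez 16181) at 100. Per kilobase of exon, a scale on which genes can be compared, the mean levels were 125057 for Il1b, 63990.1 for Il1a, 11812 for Il1rn, 2053 for Il18, 413 for Il1r1, 247 for Il18bp, 81.2 for Il1rap and 4.45 for Il1r2. The order of neighbours held in all 9 libraries for Il1b over Il1a, Il1rn over Il18, Il18bp over Il1rap and Il1rap over Il1r2. It held in 8 of 9 for Il1a over Il1rn and for Il18 over Il1r1, with cpdA 3 the exception in each, and in 8 of 9 for Il1r1 over Il18bp, with LPS 3 the exception. The signalling receptor and its accessory chain were thus far below the IL-1 ligands in level, and the decoy receptor was close to the detection limit.

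**Figure D1:**
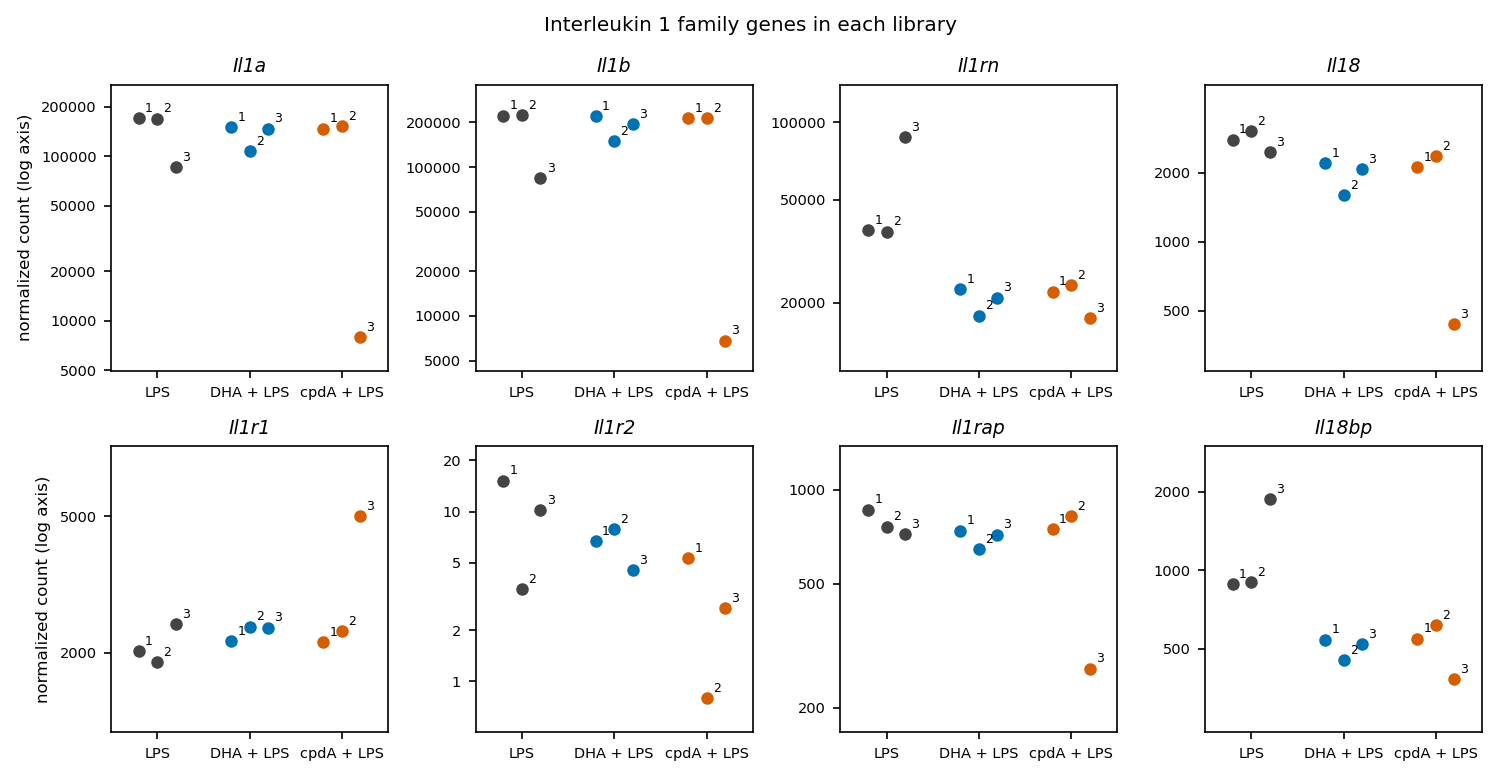
Normalized counts of the 8 genes in each of the 9 libraries, on log axes that differ between panels, with each point a library numbered by its replicate. In Il1rn, Il18 and Il18bp all 6 pretreated libraries lie below all 3 LPS libraries, while in Il1a and Il1b the low points are LPS 3 and cpdA 3.

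Neither IL-1 ligand differed between the groups beyond the spread of the libraries. Il1b, the secreted cytokine that drives fever and acute inflammation, had normalized counts of 221480.5, 224381.5 and 83957 in LPS 1, 2 and 3, of 219000.1, 149428 and 194820.5 in DHA 1, 2 and 3, and of 213646, 212644 and 6839.8 in cpdA 1, 2 and 3. The groups overlapped, since LPS 3 was below every DHA library and cpdA 3 was below all others. Il1a, whose precursor is itself active and acts as an alarm signal when released from damaged cells, had 170254, 168859 and 86229 with LPS, 149369, 107467 and 147039 with DHA, and 146907, 152785 and 7939.9 with cpdA. Its low libraries were again LPS 3 and cpdA 3. The changes of Il1b were 0.20 for DHA (95% interval -2.42 to 2.83, limma adjusted p = 0.949) and -1.25 for cpdA (SE 1.16, limma adjusted p = 0.65), on the log2(normalized count + 1) scale used for all changes. Those of Il1a were -0.02 (SE 0.98, limma adjusted p = 0.994) and -1.27 (SE 0.98, limma adjusted p = 0.581). Without cpdA 3 and LPS 3 the estimates were far narrower, at -0.27 for Il1b (95% interval -0.60 to 0.07) and -0.35 for Il1a (95% interval -0.67 to -0.03) with DHA, and at -0.06 and -0.18 with cpdA. None of these passed the test (limma adjusted p = 0.324, 0.176, 0.94 and 0.763), and for Il1b with DHA the sign turned. The cpdA estimates over all 9 libraries rest on cpdA 3: with that library alone left out, the change against LPS was 0.40 for Il1b and 0.15 for Il1a.

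The antagonists gave a different picture. Il1rn had normalized counts of 38179.6, 37693.5 and 87240.1 in LPS 1, 2 and 3, of 22582, 17878 and 20993 in the DHA libraries, and of 22143, 23460.1 and 17489.6 in the cpdA libraries. All 6 pretreated libraries were below all 3 LPS libraries, and LPS 3 was far above LPS 1 and 2. The group means were 54371 ± 28466.5 with LPS, 20484 ± 2393 with DHA and 21031 ± 3137 with cpdA (SD, n = 3 libraries each), so LPS was 2.65-fold above DHA and 2.59-fold above cpdA. Il18bp (Entrez 16068) followed the same order at a lower level, with 885, 902 and 1870.4 in the LPS libraries, 542, 452 and 522 with DHA, and 547, 616 and 382 with cpdA. Here too no pretreated library reached an LPS library, and the highest value was that of LPS 3. Its means were 1219 ± 564, 505 ± 47.0 and 515 ± 120 (SD, n = 3 libraries each), with LPS 2.41-fold and 2.37-fold higher. The LPS group thus held more mRNA of both soluble inhibitors than either pretreated group in every library.

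Il18 (Entrez 16173), the ligand that Il18bp neutralises, lay on the same side. It had normalized counts of 2781, 3025 and 2459.8 with LPS, 2198, 1601 and 2068 with DHA, and 2113, 2366 and 438 with cpdA. The lowest LPS library and the highest pretreated one, cpdA 2, were close together, and cpdA 3 stood far below the rest. Over all genes tested, the 3 DHA libraries lay below the 3 LPS libraries in 15% of genes, the 3 cpdA libraries did so in 12.2%, and all 6 did so in 9.28%. Of the 7 tested members 3 did so in each of these comparisons, and none lay wholly above LPS, where the shares over all genes were 13%, 10.7% and 7.07%.

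In the fit of all 9 libraries no member passed the test in any comparison. Over all genes, limma with Benjamini-Hochberg adjustment called 0.0072% for DHA against LPS, 0.0072% for cpdA against LPS, 0% for cpdA against DHA and 0.0072% for the difference among the 3 groups. At an unadjusted p under 0.05, 2 of 7 members passed for DHA, 2 for cpdA, 0 for cpdA against DHA and 2 for the 3 groups, where 14.2%, 14.6%, 1.02% and 11.2% of all genes did. The 2 were Il1rn and Il18bp each time. Il1rn changed by -1.30 with DHA (SE 0.31, 95% interval -1.99 to -0.60, limma adjusted p = 0.214) and by -1.26 with cpdA (SE 0.31, 95% interval -1.96 to -0.57, limma adjusted p = 0.224). Il18bp changed by -1.18 in each comparison (SE 0.29, limma adjusted p = 0.219 with DHA and 0.224 with cpdA). Both intervals lie below 0, but so do those of many other genes, and the adjusted p does not set these 2 apart from them. Il18 changed by -0.50 with DHA and by -1.08 with cpdA (SE 0.54 each, limma adjusted p = 0.692 and 0.387).

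The calls depended on the 2 libraries that stand apart. Without cpdA 3 and LPS 3, 3 of the 7 members were called as lower with DHA: Il1rn fell by 0.90 (SE 0.11, limma adjusted p = 0.00117), Il18bp fell by 0.83 (SE 0.10, limma adjusted p = 0.00117) and Il18 fell by 0.58 (SE 0.12, limma adjusted p = 0.0189). That fit called 6.79% of all genes for DHA, 4.04% as lower. With cpdA, Il1rn fell by 0.73 (SE 0.12, limma adjusted p = 0.0125) and Il18bp fell by 0.62 (SE 0.11, limma adjusted p = 0.0183), whereas Il18 changed by -0.38 (limma adjusted p = 0.279), with 1.6% of all genes called and 0.885% as lower. The difference among the 3 groups was called for Il1rn and Il18bp there, with 3.27% of all genes called. The 2 libraries were left out because they stood apart in these same data, a choice that itself narrows the spread. The LPS group then holds LPS 1 and LPS 2 alone, which rank 2 in likeness among the 36 pairs of libraries. The cpdA group is represented by cpdA 1, the near match of DHA 1, and cpdA 2. The recovered reads of all 9 libraries gave calls with one count test and not the other. DESeq2 called Il1rn at -1.40 with DHA and -1.37 with cpdA (DESeq2 adjusted p = 0.00218 and 0.00243), and Il18bp at -1.27 and -1.24 (DESeq2 adjusted p = 0.00666 and 0.00643), with 2.27% and 2.81% of all genes called, and 2.73% among the 3 groups. DESeq2 gave no adjusted p for 279 genes with DHA and 1895 with cpdA, which count in these shares as not called. edgeR called no member (edgeR adjusted p = 0.202 and 0.197 for Il1rn), with 0.0216% and 0.0072% of all genes called. Weighting the 9 libraries by their fit called the same pair, Il1rn and Il18bp, in both comparisons and among the 3 groups, while 31%, 4.05% and 24.8% of all genes were called. With any 1 of the 9 libraries left out no member passed, and Il1rn stayed between -1.50 and -0.90 with DHA and between -1.47 and -0.86 with cpdA.

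**Figure D2:**
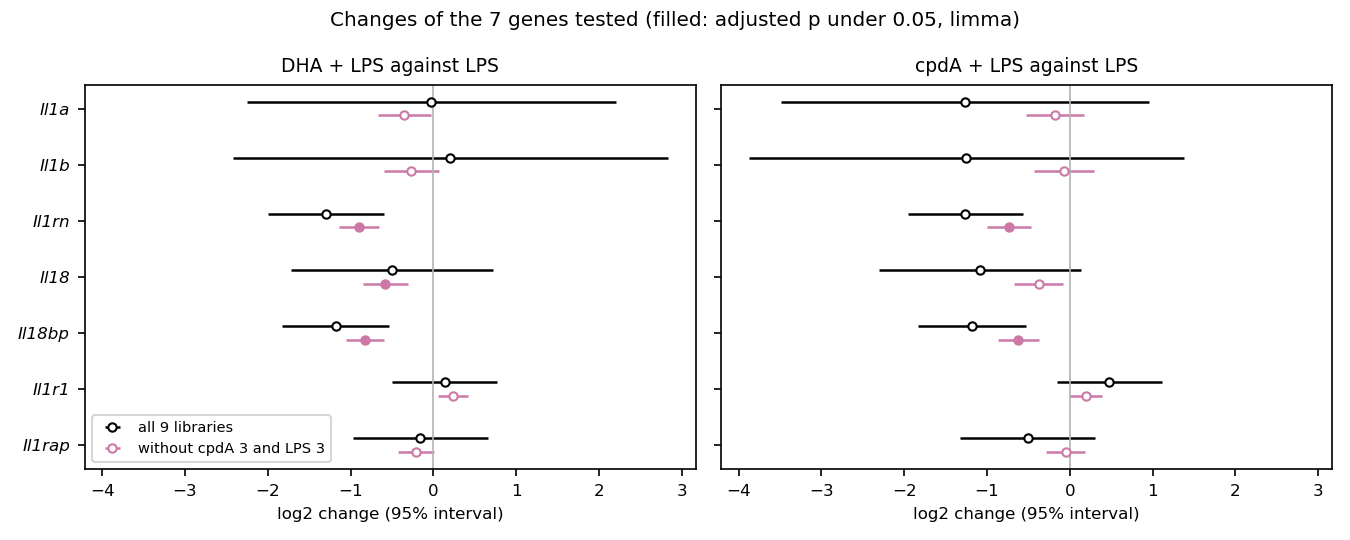
Log2 changes with 95% intervals for the 7 tested genes, for DHA + LPS against LPS on the left and cpdA + LPS against LPS on the right, in the fit of all 9 libraries (black) and without cpdA 3 and LPS 3 (pink). Filled points passed limma's test: Il1rn, Il18bp and Il18 with DHA and Il1rn and Il18bp with cpdA, in the smaller fit only, and the intervals of Il1a and Il1b are the widest over 9 libraries.

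Markers of other cell types moved with some of these differences. Of the mast cell, basophil and eosinophil list, 4 of 8 genes had values, which summed to 228.2 to 285.4 with LPS, 138.7 to 158.4 with DHA and 155.6 to 347.6 with cpdA. Of the dendritic cell list, 5 of 6 had values, which summed to 158.6 to 215.8, 115.7 to 147.1 and 132.1 to 144.3. Cd209a and Siglech were at 0 in some DHA libraries, but both rest on few reads. In any library Cd209a was at most 3.3 and Siglech at most 15.3. The B cell gene Ms4a1 had 86.9, 89.9 and 73.7 with LPS, 71.3, 57.5 and 54.5 with DHA, and 50.8, 59.9 and 88.7 with cpdA, and Cd79a had 54.2 to 80.4, 54.1 to 59 and 68.8 to 92.4. The mast cell and dendritic cell sums and Ms4a1, like Il1rn and Il18bp, were higher in each LPS library than in each DHA library. The same held for 15% of all genes tested. Not every listed gene did so: Kit was 19.4 in LPS 3 and 60.1 to 73.6 with DHA, and Zbtb46 and Cd79a overlapped between these groups. All these markers are far below the counts of Il1rn itself. Their part in the result was not tested. Neutrophil genes, 4 of 8 with values, summed to 230.2 to 394.1 with LPS, 425.1 to 506.3 with DHA and 143 to 507.9 with cpdA. The sum was lowest in cpdA 3 and LPS 3, and the listed genes were mixed. S100a8 was 44.4 in cpdA 3 and 71.6 in LPS 3, against 247.8 to 380.6 elsewhere, and Camp was also lowest in these libraries. Cxcr2 went the other way in LPS 3, where it was highest at 153.5. The mesothelial, fibroblast and endothelial list, 8 of 8 with values and carried by Col1a1 and Col3a1, was highest in LPS 3 at 19279.

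Within their groups LPS 3 and cpdA 3 departed from the other libraries in unlike ways. In LPS 3 the ligand Il1b was 2.66-fold lower than the mean of LPS 1 and 2 and Il1a 1.97-fold lower, whereas Il1rn was 2.30-fold higher and Il18bp 2.09-fold higher. The ligands and their inhibitors thus went opposite ways in that library. In cpdA 3 the ligands were lower than the mean of cpdA 1 and 2 by far more, 31.2-fold for Il1b, 18.9-fold for Il1a and 5.11-fold for Il18, and Il1rn was lower by 0.38 and Il18bp by 0.60 on the log2 scale. The receptor Il1r1 was 2.24-fold higher in cpdA 3, and its accessory chain Il1rap was 2.94-fold lower. Each of these is a single library with no replicate of its kind, so the values carry no test.

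**Figure D3:**
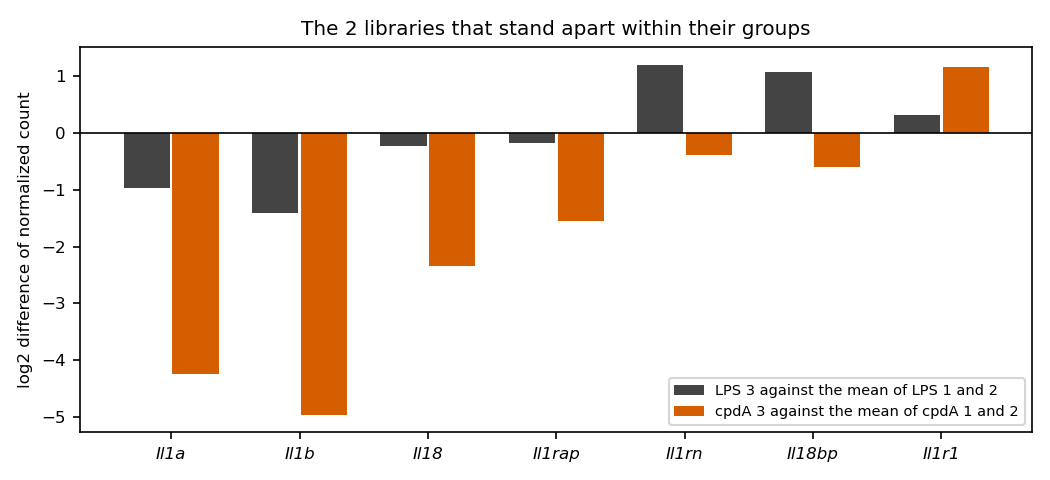
Log2 difference in normalized count of LPS 3 from the mean of LPS 1 and 2 (grey) and of cpdA 3 from the mean of cpdA 1 and 2 (orange) for the 7 tested genes. In LPS 3 Il1a and Il1b are lower while Il1rn and Il18bp are higher, and in cpdA 3 Il1b is lower by 4.96 while Il1r1 is higher by 1.17.

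The receptors showed no group difference past the test. Il1r1 (Entrez 16177), the signalling receptor, had normalized counts of 2023, 1877 and 2428 with LPS, 2162, 2385 and 2369 with DHA, and 2149, 2318 and 5013 with cpdA. Only cpdA 3 lay outside the range that the other groups covered. The changes were 0.14 with DHA (SE 0.28, limma adjusted p = 0.854) and 0.48 with cpdA (SE 0.28, limma adjusted p = 0.456), and without cpdA 3 and LPS 3 they were 0.24 and 0.20 (limma adjusted p = 0.106 and 0.439). Il1rap (Entrez 16180), the chain shared by the receptors of IL-1, IL-33 and IL-36, had 863, 762 and 721 with LPS, 740.1, 644 and 718 with DHA, and 746, 825 and 267 with cpdA. Its groups overlapped, and the changes were -0.16 and -0.51 (SE 0.36 each, limma adjusted p = 0.869 and 0.538). The cpdA value rests on cpdA 3: it was 0.0085 without that library, and -0.21 with DHA and -0.048 with cpdA without cpdA 3 and LPS 3. Il1r2 (Entrez 16178), the decoy, was covered by 1 to 14 reads in a library and 50 reads in all. Its normalized counts were 15.2, 3.5 and 10.2 with LPS, 6.7, 7.9 and 4.5 with DHA, and 5.3, 0.8 and 2.7 with cpdA. The floor of 3 reads corresponds to values between 2.46 and 6.69 in the 9 libraries, so several of these are at or under it, and no fold is given.

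The ratio of ligand to antagonist within a library does not depend on the size factor. For the 3 pairs below it was higher in each DHA library than in each LPS library. The Il1b count stood to the Il1rn count at 5.80, 5.95 and 0.962 in LPS 1, 2 and 3. It was 9.70, 8.36 and 9.28 in the DHA libraries, and 9.65, 9.06 and 0.391 in the cpdA libraries. Thus all 3 DHA libraries and 2 of the 3 cpdA libraries lay above every LPS library. LPS 3 and cpdA 3 alone had count ratios below 1. The counts are not divided by exon length, 1356 bases for Il1b and 2706 for Il1rn, so 1 does not mark equal mRNA levels. Per kilobase of exon LPS 3 held 61915 of Il1b and 32240 of Il1rn, and cpdA 3 held 5044 and 6463. The ratio of Il1a to Il1rn was 4.46, 4.48 and 0.988 with LPS, 6.61, 6.01 and 7.00 with DHA, and 6.63, 6.51 and 0.454 with cpdA. Il18 stood to Il18bp at 3.14, 3.35 and 1.32 with LPS, at 4.06, 3.54 and 3.96 with DHA, and at 3.86, 3.84 and 1.15 with cpdA. The same libraries were low and high in all 3 ratios, but the first 2 share Il1rn as denominator. Il1rn and Il18bp by themselves lay lower in each DHA library than in each LPS library, as did 15% of all genes tested. The separation of the ratios is therefore not a result apart from that of their denominators. Between DHA and LPS the mean count of Il1b was 1.06-fold higher with DHA and that of Il1a 1.05-fold lower, beside the 2.65-fold difference of Il1rn.

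The mean log2 ratio was higher with DHA than with LPS by 1.50 for Il1b to Il1rn, by 1.27 for Il1a to Il1rn and by 0.68 for Il18 to Il18bp. Each had p = 0.1 in a two-sided exact permutation test, the smallest that 3 libraries against 3 allow, and 0.6 after Benjamini-Hochberg adjustment over 18 tests. A large share of each difference came from LPS 3: without that library the differences were 0.63, 0.55 and 0.24 (exact permutation p = 0.1, 0.1 and 0.2). With cpdA the differences from LPS were 0.01, -0.0032 and 0.10, as cpdA 3 and LPS 3 balanced the other libraries (exact permutation p = 1, 1 and 0.7). Without those 2 libraries the ratios were higher with cpdA than with LPS by 0.67, 0.56 and 0.25 (exact permutation p = 0.333 each, the smallest that 2 against 2 allow). Between cpdA and DHA the differences were -1.49, -1.28 and -0.58 (exact permutation p = 0.6, 0.6 and 0.5), and without cpdA 3 they were 0.040, 0.0094 and 0.0025. Tested over all 3 groups at once, with 1680 assignments and a smallest reachable p of 0.00357, the ratios gave exact permutation p = 0.443, 0.414 and 0.354, each 0.55 after adjustment over 6 ratios.

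The ligands kept close to each other while each varied over a wide range. The count ratio of Il1b to Il1a ran from 0.861 in cpdA 3 and 0.974 in LPS 3 to 1.47 in DHA 1. In LPS 1 and 2 it was 1.30 and 1.33. Per kilobase of exon Il1b was above Il1a in all 9 libraries. The difference between DHA and LPS was 0.23 on the log2 scale (exact permutation p = 0.2, adjusted 0.6), and 0.083 without LPS 3. Ratios to the decoy Il1r2 rest on its few reads: Il1r1 to Il1r2 ran from 133 to 2898 and Il1rap to Il1r2 from 56.8 to 1031. The exact permutation p over the 3 groups was 0.0929 and 0.55 for these 2.

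**Figure D4:**
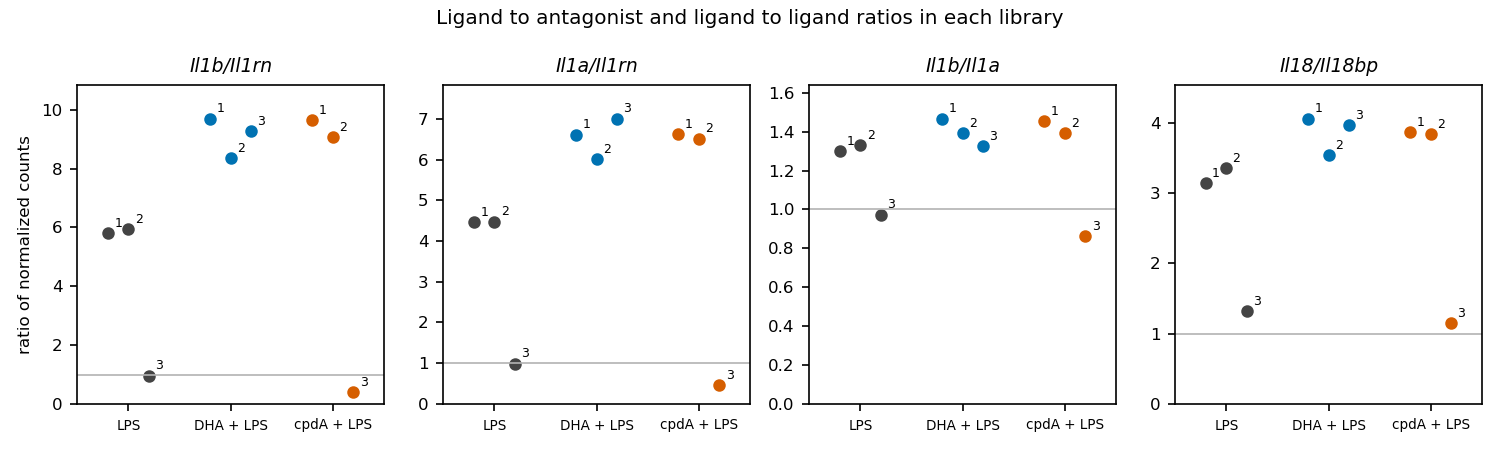
Ratios of normalized counts within each library, for Il1b to Il1rn, Il1a to Il1rn, Il1b to Il1a and Il18 to Il18bp. The counts are not divided by exon length, a grey line marks 1, and each point is a library numbered by its replicate. In the 3 ratios to an antagonist the DHA libraries lie above all LPS libraries, and LPS 3 and cpdA 3 are the lowest points in every panel.

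DHA and cpdA were not told apart by any member. The change of cpdA against DHA was 0.03 for Il1rn (95% interval -0.66 to 0.73) and 0.00 for Il18bp (95% interval -0.65 to 0.65) in the fit of all 9 libraries, intervals that still include log2 differences of 0.5 either way. For the ligands it was -1.45 for Il1b, -1.24 for Il1a and -0.58 for Il18, and for the receptors 0.34 for Il1r1 and -0.35 for Il1rap, each with a limma adjusted p of 1. Without cpdA 3 and LPS 3 the signs of Il1b, Il1a, Il18, Il1rap and Il1r1 turned, to 0.20, 0.17, 0.21, 0.17 and -0.05, and the Il1rn change was 0.16 (95% interval -0.08 to 0.41). The 3 cpdA and 3 DHA libraries overlapped for each of the 7 tested members, while over all genes the cpdA libraries lay wholly below the DHA libraries in 2.61% and wholly above in 3.04%. The doses differed, 100 µM for DHA and 10 µM for cpdA, and both comparisons with LPS share the same 3 LPS libraries.

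The promoters of the ligands that varied together and of the 2 antagonists are shown so that their sequences can be compared. Those of all 8 genes were found in RefSeq's table for GRCm38.p6, 11 start sites in all, as 250 bases before to 50 after the start. They are written 5′ to 3′ on the gene's strand, with capitals marking matches on either strand to C/EBP (TTNCNNAA), AP-1 (TGANTCA) or the PU.1 core (GGAAGT). Il1b is at chr2:129371090-129371389 on the minus strand, Il1a at chr2:129309923-129310222 on the minus strand, the 2 Il1rn starts shown at chr2:24336610-24336909 and chr2:24345121-24345420 on the plus strand, and Il18bp at chr7:102018183-102018482 on the minus strand.
Il1b: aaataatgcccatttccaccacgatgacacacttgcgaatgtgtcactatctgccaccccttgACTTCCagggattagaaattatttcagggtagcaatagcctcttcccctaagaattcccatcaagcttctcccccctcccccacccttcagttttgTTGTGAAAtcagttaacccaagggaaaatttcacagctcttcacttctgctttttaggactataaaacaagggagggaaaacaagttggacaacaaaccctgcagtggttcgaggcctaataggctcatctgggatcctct
Il1a: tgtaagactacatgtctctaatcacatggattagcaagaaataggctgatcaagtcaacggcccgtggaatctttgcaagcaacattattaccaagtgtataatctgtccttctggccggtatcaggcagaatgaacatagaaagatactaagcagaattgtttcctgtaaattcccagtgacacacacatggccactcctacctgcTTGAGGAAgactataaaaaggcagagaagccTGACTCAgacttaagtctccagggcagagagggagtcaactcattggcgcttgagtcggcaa
Il1rn, upstream start: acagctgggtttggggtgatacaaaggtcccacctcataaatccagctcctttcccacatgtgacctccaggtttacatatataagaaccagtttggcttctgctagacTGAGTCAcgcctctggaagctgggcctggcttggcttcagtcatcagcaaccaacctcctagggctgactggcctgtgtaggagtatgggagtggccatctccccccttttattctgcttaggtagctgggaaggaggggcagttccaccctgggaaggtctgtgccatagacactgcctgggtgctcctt
Il1rn, downstream start: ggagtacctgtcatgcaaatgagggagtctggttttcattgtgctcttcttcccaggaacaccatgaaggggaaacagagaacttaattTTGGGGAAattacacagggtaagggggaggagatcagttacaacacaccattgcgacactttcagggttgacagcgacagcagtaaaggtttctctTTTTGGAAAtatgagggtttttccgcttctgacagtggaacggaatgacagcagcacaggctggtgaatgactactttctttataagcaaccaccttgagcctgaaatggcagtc
Il18bp: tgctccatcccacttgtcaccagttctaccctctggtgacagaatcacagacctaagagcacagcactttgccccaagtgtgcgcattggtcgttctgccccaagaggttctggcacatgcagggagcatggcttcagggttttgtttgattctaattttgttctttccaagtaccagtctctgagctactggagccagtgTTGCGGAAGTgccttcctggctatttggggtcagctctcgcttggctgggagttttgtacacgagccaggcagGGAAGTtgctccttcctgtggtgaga
The Il1b promoter held a C/EBP match 91 bases before the start and a PU.1 core 187 bases before it. That of Il1a held a C/EBP match at 43 and an AP-1 match at 12 bases before the start, and the upstream Il1rn start an AP-1 match at 141. The downstream Il1rn start held C/EBP matches, of which 2 overlap, and in Il18bp a C/EBP match overlaps a PU.1 core. Such matches are common: of 32851 promoters of this length 40.7% held the C/EBP letters, 23.8% the PU.1 core and 7.81% the AP-1 letters. An NF-κB consensus was found in 1 of the 8 genes, Il1r1, and in 4.51% of promoters, and an interferon-stimulated response element in 1, Il1rap, and in 3.44%. A match describes letters and not binding.

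Other genes of the pathway were read from 4 lists with 47 entries, of which 39 were in the table and 37 were tested. None passed the test over 9 libraries in any comparison. With DHA 14 changes were above 0 and 23 below (median -0.09), and with cpdA 13 and 24 (median -0.12), against medians over all genes of -0.00067 and -0.0043. At an unadjusted p under 0.05 there were 6 of 37 with DHA, where 14.2% of all genes passed, and 9 of 37 with cpdA, where 14.6% did. The 13 tested genes for processing and release of IL-1 and IL-18 had 9 changes below 0 with DHA (median -0.40) and 11 with cpdA (median -0.28). The 18 genes of receptor signalling had 11 and 10 below 0 (medians -0.02 and -0.04). Without cpdA 3 and LPS 3 the median of the processing list was -0.19 with DHA and -0.26 with cpdA, that of receptor signalling -0.03 and 0.0043, and that of all 37 genes -0.09 and -0.02.

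Among the other ligands Il33, an alarm signal of the same family that is kept in the nucleus, had normalized counts of 273.9, 257 and 309 with LPS, 127.1, 170.3 and 148 with DHA, and 122.7, 186.9 and 111.4 with cpdA. All pretreated libraries were below all LPS libraries, as for Il1rn and for 9.28% of all genes tested. The changes were -0.92 with DHA and -1.02 with cpdA (SE 0.21 each, limma adjusted p = 0.201 and 0.171). Il1f9, an older symbol of Il36g, which encodes IL-36γ, was at 128 ± 14.0 with DHA, 145 ± 5.93 with cpdA and 126 ± 5.52 with LPS (SD, n = 3 libraries each). It changed by 0.02 and 0.20 (limma adjusted p = 0.96 and 0.502). Of the other receptors, Il1rl1 (the IL-33 receptor) changed by -0.23 with DHA (0.08 without cpdA 3 and LPS 3), Il1rl2 (the IL-36 receptor) by 0.09 and 0.20, and Il18rap (the accessory chain for IL-18) by -0.32 with cpdA, none past the test.

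In receptor signalling Peli2, a Pellino ubiquitin ligase that acts with IRAK kinases, had 64.1, 83 and 43 with LPS, 136, 366.5 and 231.5 with DHA, and 95.2, 102.5 and 201 with cpdA. All 6 pretreated libraries were above the LPS libraries, as they were in 7.07% of all genes tested. The changes were 1.87 with DHA (SE 0.42, limma adjusted p = 0.201) and 1.02 with cpdA (limma adjusted p = 0.312), the latter 0.43 without cpdA 3 and LPS 3. Myd88, the adaptor itself, had means of 5864 ± 241 with LPS, 4026 ± 558 with DHA and 3787 ± 1411 with cpdA (SD, n = 3 libraries each), with changes of -0.55 and -0.71 (limma adjusted p = 0.386 and 0.285). Casp4, the mouse caspase-11 gene, whose product senses intracellular LPS, changed by -0.90 and -0.85 (SE 0.21 each, limma adjusted p = 0.201 and 0.221). Aim2, a sensor of cytosolic DNA, changed by -0.64 and -0.70 (limma adjusted p = 0.243 and 0.224). Nlrp3, the sensor of the best-known inflammasome, changed by 0.14 and -0.08 (SE 0.42 each), and both signs turned without cpdA 3 and LPS 3, to -0.19 and 0.07.

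**Figure D5:**
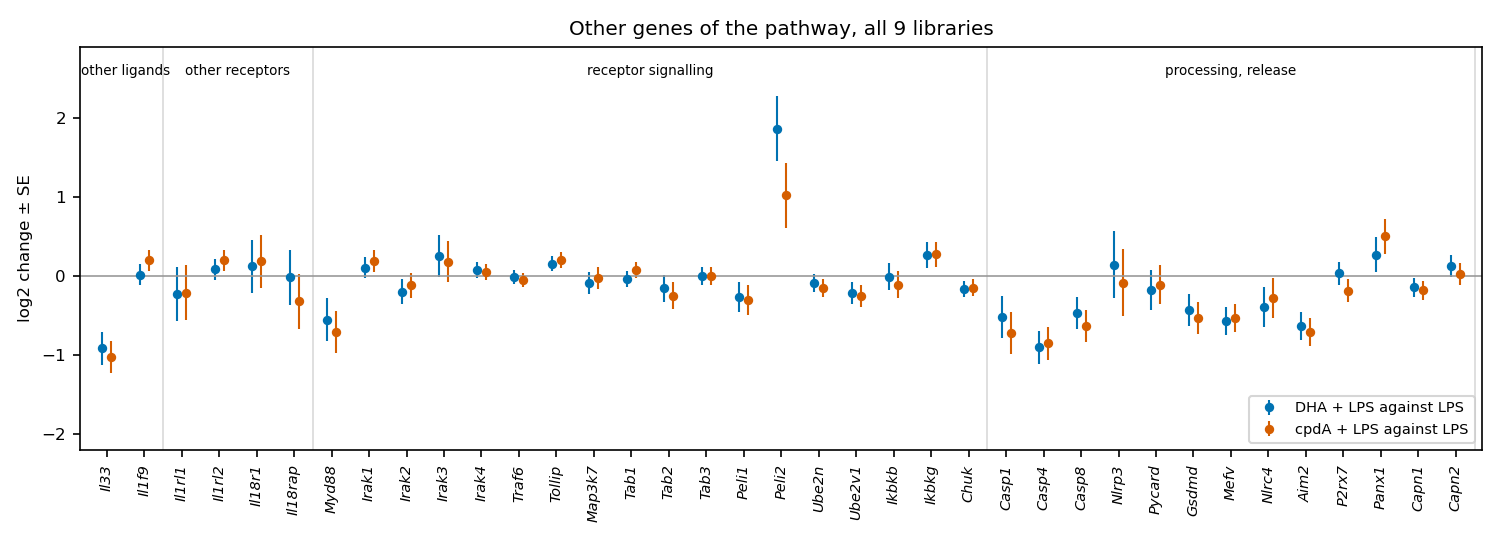
Log2 changes with standard errors of the listed other ligands, receptors, signalling genes and processing genes in the fit of all 9 libraries, for DHA + LPS against LPS (blue) and cpdA + LPS against LPS (orange). None passed the test, Peli2 is the highest at 1.87 with DHA, and Il33, Casp4, Aim2 and Myd88 lie below 0 in both comparisons.

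Without cpdA 3 and LPS 3, where 6.79% of all genes were called for DHA, 8 of the 37 pathway genes were: Peli2 rose by 1.62 (limma adjusted p = 0.0363), and 7 fell. Il33 fell by 0.84 (limma adjusted p = 0.0224), Myd88 fell by 0.52 (0.0162), and Casp4 fell by 0.70 (0.00582). Aim2 fell by 0.49, Casp1, which cleaves the IL-1β and IL-18 precursors, fell by 0.48, Mefv, which encodes the inflammasome protein pyrin, fell by 0.46, and Casp8, an apoptotic caspase that can also cleave the IL-1β precursor, fell by 0.33 (limma adjusted p = 0.00897, 0.0277, 0.0414 and 0.0426). For cpdA, where 1.6% of all genes were called, none of the 37 was. With cpdA 3 alone left out, 6 of the 37 were called for DHA, with 2.68% of all genes called. A DHA effect past the threshold and a cpdA effect short of it do not show a difference between the compounds, and none of the 37 was called in cpdA against DHA.

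The genes whose levels over the 9 libraries were most like those of Il1b were, among 11357 genes with a mean of at least 50, Ptgs2 (the inducible cyclooxygenase, Pearson r = 0.998), the non-coding Gm14023 (0.998), Slc26a4 (an anion exchanger, 0.998), Il12b (the shared subunit of IL-12 and IL-23, 0.996) and Slc7a2 (a cationic amino acid transporter, 0.9945). In cpdA 3 the normalized count of Ptgs2 was 5682 and that of Il12b 2464, against at least 34512 and 10062 elsewhere. For Il1rn the closest were Slc28a2 (a nucleoside transporter, 0.996), Tgtp2 (0.995) and Tgtp1 (0.994), which are near-identical interferon-induced GTPases that could share reads, Pik3cd (a catalytic subunit of phosphoinositide 3-kinase, 0.993) and Gbp9 (a guanylate-binding protein, 0.991). Slc28a2 had 10386 in LPS 3 and at most 3891 elsewhere, so these likenesses describe 9 points in which LPS 3 and cpdA 3 are far from the rest and which share library and group.

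Some members overlap other genes, and as the use of strand in counting is not given in the sources used here, their reads cannot be told apart. Gm14023 overlaps Il1a, with normalized counts from 346.8 in cpdA 3 to 7593 in LPS 1. Il1bos, a non-coding gene antisense to Il1b, ran from 1.8 in cpdA 3 to 215.2 in LPS 1. Bco2, a carotenoid-cleaving enzyme gene that overlaps Il18, had 206.5, 204 and 213.9 with LPS, 83.4 to 124.8 with DHA and 24.4 to 123.8 with cpdA, and Gm20319 overlaps Il1rap with 14.5 to 42.4. In every library each of these was far below the member it overlaps.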

How the data were processed

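RNA-seq libraries of LPS-stimulated mouse intraperitoneal macrophages were grouped by their titles into 3 groups of 3. The deposited signal values show that the authors scaled read counts by a size factor for each library. The submitters' processing notes name CASAVA 1.8.2, Bowtie2, DESeq and mm9. For the counting program, the annotation and strand the entry is: not given in the sources used here. The labels' growth and extraction texts concern other experiments and were left aside. At least 99.9% of values per library were whole multiples of 1 read within 0.05, and reads were recovered by rounding. Floors of 3 reads cover counting error only.

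Genes with a value of at least 10 in at least 3 libraries were kept. The deposited values were fitted as log2(value + 1), which understates changes of low genes, in limma 3.58.1 (R 4.3.3) with all 9 libraries, trend and robust moderation, and Benjamini-Hochberg adjustment over all kept genes at 0.05. Ratios were compared by exact permutation. Alternatives on the recovered reads were DESeq2 1.42.0 and the quasi-likelihood test of edgeR 4.0.16. Scripts were tested on simulated data.

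The members, lists and tests were chosen with earlier results of these data known. Named were all members, called pathway genes or else the 2 with the smallest p per list and comparison, and the 5 genes most like Il1b and Il1rn. For cpdA against DHA that rule also gave Tab1 (change 0.12), P2rx7 (-0.22) and Panx1 (0.23), none past the test. Nlrp3 was named after its values were seen. Exon lengths are the union of GENCODE vM21 basic exons, a later build than mm9, and used for length only. What replicate numbers stand for is not in the labels. Deviations of same-number libraries correlated at 0.387, 0.234 and 0.437 between LPS and cpdA, which meets a rule of over 0.1 in every pair. The main fit and the permutation tests nevertheless used no pairing. Both 3s stand apart, and 2 pairs with unlike numbers also passed 0.1, at 0.292 and 0.264. Meeting the rule therefore does not show that the numbers pair libraries. The DHA pairs did not meet the rule. A replicate block changed no call of a member. The sum of the lymphocyte marker list is not reported here.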

Additional observations from a re-analysis of the deposited data

How the results depend on the processing

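The count of 0 members called for DHA and for cpdA against LPS and for the 3 groups was kept under other pseudocounts, filters and scalings, edgeR, no moderation, only the libraries compared (not run for the 3 groups), the fit without DHA 1 and cpdA 1 (chosen after seeing the data) and each library left out. With a replicate block it was also 0, with Il1rn at -1.30 for DHA and -1.26 for cpdA (limma adjusted p = 0.262 and 0.298). It became 2, 2 and 2 with DESeq2. Without cpdA 3 and LPS 3, left out as they stood apart in these data, it was 3, 2 and 2. Library weights gave 2, 2 and 2, where 31%, 4.05% and 24.8% of all genes were called. Called pathway genes for DHA were 4 with DESeq2 (2.27% of all genes called), 8 without cpdA 3 and LPS 3 (6.79%), 14 with weights (31%) and 0 to 6 with 1 library left out, the 6 without cpdA 3 (2.68%). For cpdA they were 3 with DESeq2 (2.81%) and 3 with weights (4.05%). The causes were not tested.

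Signs turned for members short of the test. For DHA, Il1a was 0.071 with quantile scaling and -0.35 to 0.14 with 1 library left out, and Il1b was -0.27 without cpdA 3 and LPS 3, -0.16 with weights and -0.27 to 0.44 with 1 left out. For cpdA against LPS, leaving out 1 library gave -1.99 to 0.15 for Il1a, -2.08 to 0.40 for Il1b and -0.80 to 0.0085 for Il1rap. For cpdA against DHA it gave -1.96 to 0.17 for Il1a, -2.28 to 0.20 for Il1b, -0.061 to 0.16 for Il1rn, -0.045 to 0.57 for Il1r1, -0.65 to 0.17 for Il1rap, -1.01 to 0.21 for Il18 and -0.14 to 0.20 for Il18bp. There, without cpdA 3 and LPS 3, Il1a was 0.17, Il1b 0.20, Il1r1 -0.045, Il1rap 0.17 and Il18 0.21. With weights Il1r1 was -0.042, Il1rap 0.066 and Il18 0.036, and without DHA 1 and cpdA 1 Il18bp was -0.0021.

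Ratio differences (log2) also turned. For cpdA against LPS without DHA 1 and cpdA 1, Il1b/Il1rn was -0.77, Il1b/Il1a -0.12 and Il18/Il18bp -0.19. Il1a/Il1rn was 0.55 from medians and 0.56 without cpdA 3 and LPS 3. For cpdA against DHA without those 2 libraries, Il1b/Il1rn was 0.040, Il1a/Il1rn 0.0094, Il1b/Il1a 0.031 and Il18/Il18bp 0.0025, and Il1b/Il1a from medians was 0.0014. With 1 library left out, cpdA against LPS ranged from -0.86 to 1.54 for Il1b/Il1rn, -0.73 to 1.28 for Il1a/Il1rn, -0.13 to 0.26 for Il1b/Il1a and -0.34 to 0.68 for Il18/Il18bp, and cpdA against DHA from -2.27 to 0.040, -1.93 to 0.0094, -0.35 to 0.031 and -0.87 to 0.0025. Il1rap/Il1r2 ranged from -0.11 to 0.73 for DHA and -0.065 to 1.27 for cpdA against DHA. The exact permutation p of Il1r1/Il1r2 over 3 groups was 0.0429 from medians, 0.0381 without DHA 1 and cpdA 1, and 0.0143 to 0.214 with 1 left out, on 1 to 14 Il1r2 reads. With 3 libraries a group, no exact pairwise test can reach 0.05.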
